A study of Homo sapiens with 12 samples.

Results

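FOXM1, MYBL2 and 8 genes of the DREAM complex and its pocket protein relatives (LIN9, LIN37, LIN52, LIN54, RBL1, RBL2, RB1 and TFDP1) were followed on 12 expression arrays. They were taken as every probe annotated to these 10 symbols, which gave 13 of the 47231 probes and 10 of the 20046 genes with a probe. The arrays were single-colour Illumina beadchips, and 11765 genes had a probe above background and were tested. The cells were TMD8, derived from a diffuse large B-cell lymphoma with an activated B-cell profile, and DOHH2 (spelled DoHH2 in the sample titles), derived from a lymphoma of germinal centre B cells. Each line received DMSO, the vehicle, or the compound ST5589 at 300 nM, and each of the 4 groups held 3 arrays. ST5589 is described as a derivative of ST1926, an atypical retinoid. How long the cells were exposed, and whether the replicates came from separate cultures, is not stated in the labels. The p-values therefore reflect array-to-array spread alone, which could be technical. Each line was run on its own chip, and line and chip cannot be told apart. DMSO arrays preceded ST5589 arrays on both chips, and treatment and position within a chip cannot be told apart either.

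The DREAM complex joins a pocket protein (RBL1, also called p107, or RBL2, also called p130), an E2F factor with its partner TFDP1, and the MuvB core of LIN9, LIN37, LIN52, LIN54 and a histone-binding subunit. In quiescent or p53-arrested cells it holds cell cycle genes down. In cycling cells the MuvB core leaves the pocket protein and binds the transcription factor MYBL2 (B-MYB) and later FOXM1, and these complexes switch on the genes of G2 and mitosis through a promoter element called the CHR. FOXM1 and MYBL2 are themselves cell cycle genes, so the comparison asks whether either was lowered together with the mitotic genes under ST5589.

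The promoters of MYBL2, RBL1 and the mitotic kinase gene PLK1 show the 2 kinds of element. Windows of 250 bases before to 50 bases after the start were taken from RefSeq (GRCh38.p14), where 9 of the 10 members had at least 1, and FOXM1 had none in the table. The letters searched on both strands were TTTGAA and TTCGAA for the CHR, and GGCGGGA, TTTCCCGC, TTTCGCGC, TTTGCCGC and TTTGGCGC for an E2F site, where GGCGGGA read on the opposite strand can overlap TTTCCCGC, as it did in LIN52. Of the 27305 genes with a window, 19.5% held CHR letters and 20.1% held E2F letters. CHR letters were found for 33 of 44 genes of a list of 50 mitotic and late cell cycle genes (75%) and for 2 of 31 genes of a list of 36 G1/S and DNA synthesis genes (6.45%). E2F letters were found for 16 of 44 (36.4%) and 26 of 31 (83.9%) of these genes. Among the 9 members, 7 held E2F letters (MYBL2, LIN9, LIN37, LIN52, LIN54, RBL1 and TFDP1) and 4 held CHR letters (LIN9, LIN37, LIN54 and RBL2). A match is a description of letters and not a binding site. The 250 bases before the start are given 5′ to 3′ on the gene's strand, with the matched letters in capitals, which are E2F letters in MYBL2 and RBL1 and CHR letters in PLK1.
MYBL2, chr20:43666864-43667113 (+ strand): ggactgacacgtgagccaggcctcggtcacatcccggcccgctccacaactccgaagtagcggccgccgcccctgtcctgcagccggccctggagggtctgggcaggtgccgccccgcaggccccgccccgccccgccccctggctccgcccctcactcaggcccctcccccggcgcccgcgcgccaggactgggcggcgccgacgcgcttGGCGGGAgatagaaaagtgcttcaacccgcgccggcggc
RBL1, chr20:37095998-37096247 (- strand): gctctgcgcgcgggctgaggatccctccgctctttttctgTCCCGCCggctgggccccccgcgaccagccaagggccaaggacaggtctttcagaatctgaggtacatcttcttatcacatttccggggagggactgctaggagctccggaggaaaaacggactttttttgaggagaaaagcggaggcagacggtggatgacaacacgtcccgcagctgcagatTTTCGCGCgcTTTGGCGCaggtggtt
PLK1, chr16:23678639-23678888 (+ strand): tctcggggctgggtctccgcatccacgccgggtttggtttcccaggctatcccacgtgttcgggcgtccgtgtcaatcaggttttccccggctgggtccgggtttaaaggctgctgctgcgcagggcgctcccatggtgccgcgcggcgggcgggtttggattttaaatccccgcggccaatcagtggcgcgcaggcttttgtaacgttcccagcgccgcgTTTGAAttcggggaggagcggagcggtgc

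Before the results, 3 arrays need mention. In DOHH2 under ST5589, array 2 carried signal seen otherwise in TMD8: 17 probes were over 1000 intensity units above background on every TMD8 array and not above background on the other 5 DOHH2 arrays, and all 17 were above background here, where their signal was 4.32% (median) of that in TMD8. For each of the other 5 DOHH2 arrays the same rule gave 0 probes. For them it required no signal above background on array 2, so it cannot show that they lacked TMD8 signal. In TMD8 under ST5589, array 2 stood above its group for small RNAs, with RN7SK at 12.51 against 11.16 and 11.28 (all levels below are normalized log2 intensities). TMD8 DMSO array 1 had the highest background of the 12 arrays. The correlation between arrays of a group lay between 0.982 and 0.998 over the genes tested. Of the B cell markers with a probe, 5 were above background on all 12 arrays, while PAX5 was above background on 1 TMD8 array only. Of 19 markers of T and NK cells, myeloid cells, stroma and epithelium with a probe, 3 were above background on all 6 arrays in TMD8 (CD5, CD14 and FCGR3A) and 3 in DOHH2 (LYZ, FCGR3A and PDGFRB). In each line 4 more were above background on 2 to 5 arrays and 12 on at most 1, with CD3E and CSF1R on none. The highest mean of any of them was 6.73, for LYZ in DOHH2, beside lowest signals above background of 6.12 to 6.24. Their part in the results was not tested.

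No member was called under ST5589 in either line by the limma fit across all genes. In TMD8, 0 of 10 members were called (Benjamini-Hochberg adjusted p under 0.05), where 0.901% of all genes tested were called, 64 higher and 42 lower. In DOHH2 it was 0 of 10 against 0.0340%, and for the effect averaged over both lines 0 of 10 against 0.731%. The difference between the effects in the lines gave 0 of 10 against 0.0170%. At an unadjusted p under 0.05, only RBL1 passed in TMD8 and only LIN9 in DOHH2, where 849 and 563 of all genes passed. By that measure 0 members passed for the average, where 1221 of all genes did. RBL1 alone passed for the difference, where 321 of all genes did. The median log2 fold change of the 10 members was 0.03 in TMD8 and -0.05 in DOHH2, beside 0.01 in both lines over all genes. The 50 mitotic genes, in contrast, had a median of -0.50 in TMD8 with 22 called lower and 0 higher, and a median of -0.26 in DOHH2 with 2 called lower. The count of 22 was 1 when arrays were scaled to a common median instead of quantile normalized, where 5 genes in all were called higher and 2 lower. It was 9 with the replicate number as a block and 42 with array weights, and it ran from 11 to 23 when single arrays were left out. The 2 calls in DOHH2 ran from 0 to 2, and both medians stayed negative under all 24 alternatives. In bulk RNA, fewer cells in mitosis and less RNA per cell cannot be told apart. The mitotic list was drawn up with earlier results of these arrays known and is not independent evidence of its direction.

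**Figure D1:**
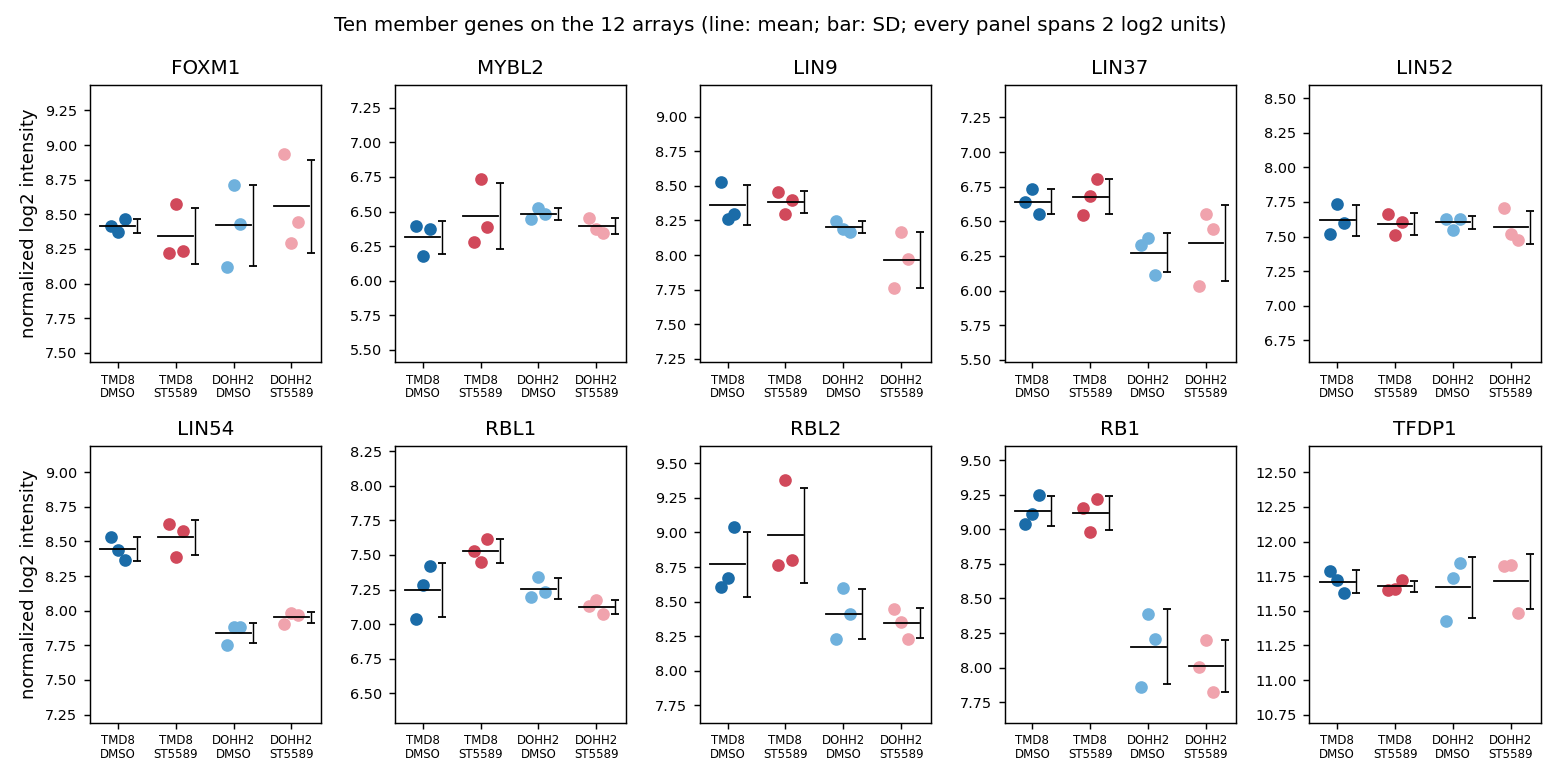
Normalized log2 intensity of the 10 member genes on each array (1 point per array, 3 per group), with group means as lines and SD as bars, each panel spanning 2 log2 units. RB1 and LIN54 lie lower in all DOHH2 arrays than in all TMD8 arrays, and no panel shows a called shift between DMSO and ST5589.

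FOXM1, the forkhead factor that activates genes of G2 and mitosis, was called in neither line. In TMD8, FOXM1 was 8.41, 8.37 and 8.47 on the DMSO arrays and 8.22, 8.57 and 8.24 on the ST5589 arrays. Treated arrays 1 and 3 lay below every DMSO array and treated array 2 above every one. This gave a log2 fold change of -0.07 ± 0.17 (SE), with a 95% interval of -0.44 to 0.29 (limma adjusted p = 0.969). It was -0.19 without treated array 2, the array with raised small RNAs, and -0.22 under common-median scaling, where the mitotic medians were -0.52 and -0.70. Under that scaling the median over all genes tested in TMD8 was itself -0.09, beside 0.01 in the main fit. In DOHH2, FOXM1 was 8.12, 8.71 and 8.43 under DMSO and 8.94, 8.29 and 8.45 under ST5589. The groups overlapped in part, with treated array 1 above every DMSO array and DMSO array 1 below every treated one. The resulting log2 fold change was 0.14 ± 0.17, with an interval of -0.23 to 0.50 (limma adjusted p = 0.94), and it was -0.05 without treated array 1 and 0.27 without treated array 2, the array with TMD8 signal. The FOXM1 probe of these values was ILMN_2344971. A second one, ILMN_1716400, annotated to another transcript entry of the gene, gave -0.08 in TMD8 and 0.17 in DOHH2. FOXM1 under DMSO lay 2.28 (TMD8) and 2.22 (DOHH2) log2 units above the lowest signal counted as above background. Background thus did not limit a fall of the size of the mitotic genes. In DOHH2, with a mitotic median of -0.26 beside an SE of 0.17 for FOXM1, a fall of that size might not have been called.

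MYBL2, the MYB family factor that joins MuvB before FOXM1, was close to background on all arrays. In TMD8, MYBL2 was 6.39, 6.18 and 6.37 under DMSO and 6.28, 6.73 and 6.39 under ST5589. Only treated array 2, the array with raised small RNAs, lay above every DMSO array. MYBL2 thus had a log2 fold change of 0.15 ± 0.11 (limma adjusted p = 0.874), or 0.02 without that array. In DOHH2, MYBL2 was 6.44, 6.53 and 6.48 under DMSO and 6.46, 6.37 and 6.35 under ST5589, with 1 treated array inside the DMSO range and the others below it. This came to a log2 fold change of -0.09 ± 0.11 (limma adjusted p = 0.940). MYBL2 lay only 0.17 (TMD8) and 0.28 (DOHH2) log2 units above the lowest signal counted as above background, which ran from 6.12 to 6.24 over the arrays. A fall of 0.50, the size of the mitotic median in TMD8, would have taken this probe below that signal. In DOHH2 a fall of 0.26, the size there, would have brought it close to that signal. Without DOHH2 treated array 2, the array with TMD8 signal, the mitotic median was -0.33. A fall of that size would have taken MYBL2 below the signal. The arrays thus bound what can be said of MYBL2 from below.

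**Figure D2:**
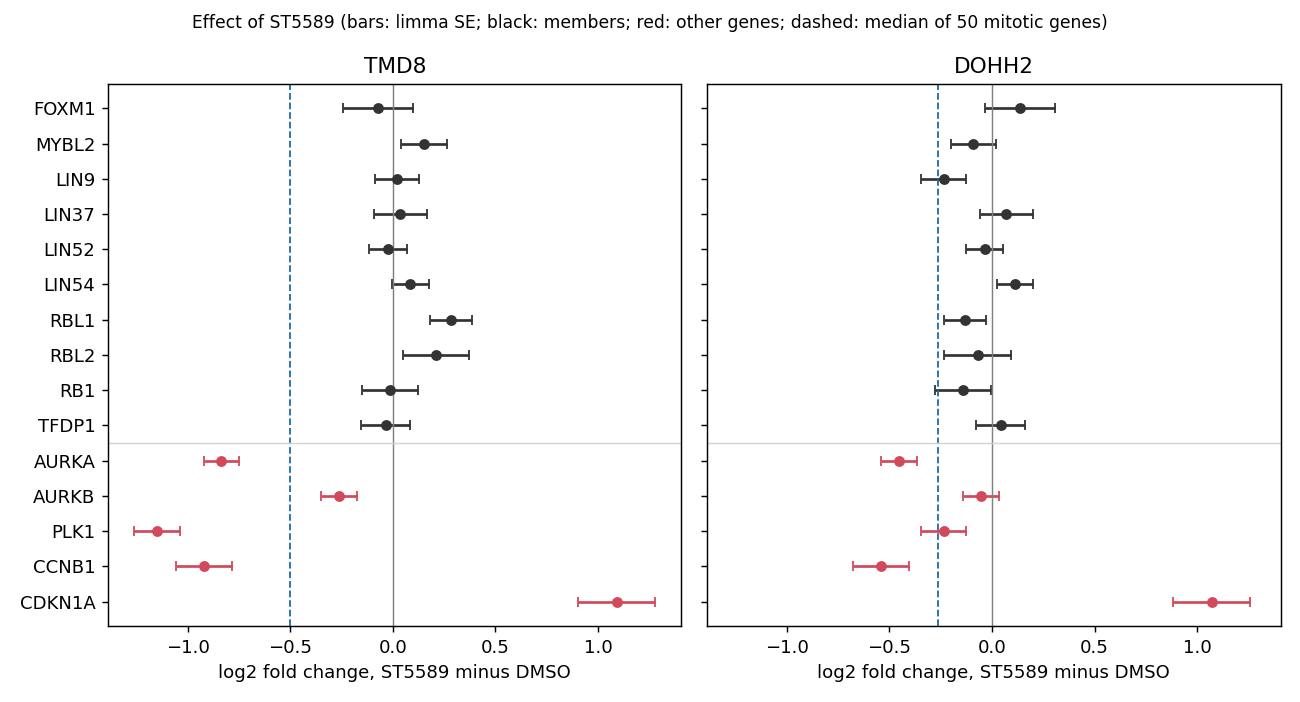
Log2 fold change of ST5589 against DMSO with limma standard errors for the 10 members (black) and for AURKA, AURKB, PLK1, CCNB1 and CDKN1A (red), in TMD8 (left) and DOHH2 (right), 3 arrays per group. Dashed lines mark the median of 50 mitotic genes, -0.50 in TMD8 and -0.26 in DOHH2; in TMD8 all 10 members lie to the right of it, from -0.07 to 0.28.

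None of the 4 MuvB core genes passed the test in either line. LIN9, the scaffold of the core, had a log2 fold change of 0.02 ± 0.11 in TMD8, LIN37, needed for repression by DREAM, 0.04 ± 0.13, LIN52, which links MuvB to the pocket protein, -0.02 ± 0.09, and LIN54, the subunit that contacts the CHR, 0.09 ± 0.09 (limma adjusted p from 0.920 to 0.992). In every case the treated and DMSO arrays overlapped. In DOHH2, LIN9 was 8.25, 8.19 and 8.17 under DMSO and 7.76, 8.17 and 7.97 under ST5589. The treated arrays were lower than each of the DMSO arrays, with treated array 2 closest at less than 0.01 below the lowest of them. The log2 fold change was -0.24 ± 0.11 (unadjusted p = 0.0489, limma adjusted p = 0.929). Without treated array 1 it was -0.14, and without treated array 2 it was -0.34.

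LIN54 in DOHH2 was 7.75, 7.88 and 7.88 under DMSO and 7.91, 7.98 and 7.97 under ST5589. The treated arrays all lay above the DMSO arrays by a small margin, with a log2 fold change of 0.11 ± 0.09 (limma adjusted p = 0.929). LIN52 gave -0.04 ± 0.09 and LIN37 0.07 ± 0.13 in DOHH2, with overlapping groups. LIN37 was dim in this line and above background on 2 of 3 arrays in each group, and its fold change was -0.04 without treated array 2. Groups that did not overlap were found for LIN9, LIN54 and RBL1 in DOHH2, 3 of 10 members, where 8.32% of all genes had such groups. In TMD8 it was RBL1 alone, 1 of 10, where the share was 17.6% of all genes.

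Of the pocket proteins, RBL1 (p107) had shifts of opposite sign in the lines, neither of them called. In TMD8, RBL1 was 7.04, 7.28 and 7.42 under DMSO and 7.53, 7.45 and 7.62 under ST5589. All treated arrays were above all DMSO arrays. The log2 fold change was 0.28 ± 0.10, with an interval of 0.07 to 0.50 and an unadjusted p of 0.0145, and it missed the threshold (limma adjusted p = 0.430). Without DMSO array 1, the array of highest background and the lowest for RBL1, it was 0.18. In DOHH2, RBL1 was 7.20, 7.34 and 7.23 under DMSO and 7.13, 7.17 and 7.07 under ST5589. Here every treated array was lower than each DMSO array, with a log2 fold change of -0.13 ± 0.10 (limma adjusted p = 0.929). The difference between the lines, DOHH2 minus TMD8, was -0.41 ± 0.14 (unadjusted p = 0.0121, limma adjusted p = 0.9998). Such opposite, non-overlapping shifts were seen in 35 of the 11765 genes (0.297%). A second RBL1 probe, ILMN_1753013, was not above background on any array.

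RBL2 (p130), the pocket protein of quiescent cells, was 8.60, 8.67 and 9.04 under DMSO and 8.77, 9.38 and 8.80 under ST5589 in TMD8. The groups overlapped, and treated array 2 was again the highest. It gave a log2 fold change of 0.21 ± 0.16 (limma adjusted p = 0.893) and 0.01 without that array. In DOHH2 it was -0.07 ± 0.16. RB1, the retinoblastoma protein that restrains E2F activators, gave -0.01 ± 0.14 in TMD8 and -0.14 ± 0.14 in DOHH2 (limma adjusted p = 0.999 and 0.932). TFDP1, the partner that lets E2F factors bind DNA, gave -0.03 ± 0.12 and 0.04 ± 0.12. A second TFDP1 probe gave 0.06 and 0.08. Treated and DMSO arrays overlapped for RBL2, RB1 and TFDP1 in both lines. Without DOHH2 treated array 2, the DOHH2 values were -0.07 for RBL2, -0.23 for RB1 and -0.02 for TFDP1, and again 0 of 10 members were called.

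Between the lines the members were compared under DMSO. There, 3 of the 10 members were called between DOHH2 and TMD8, all lower in DOHH2, where 52.4% of all genes were called, so the share among the members was below that of all genes. Groups did not overlap for 6 of 10 members (MYBL2, LIN9, LIN37, LIN54, RBL2 and RB1), beside 58.0% of all genes. Of these 6, MYBL2, which lay near background, was higher in DOHH2 by 0.17 (limma adjusted p = 0.22), and the others were lower. RB1 under DMSO was 9.04, 9.11 and 9.25 in TMD8 and 7.86, 8.39 and 8.21 in DOHH2. Every DOHH2 array lay below every TMD8 array, and the level in DOHH2 was 0.507 times that in TMD8, a log2 difference of -0.98 ± 0.14 (limma adjusted p = 3.3e-05). LIN54 under DMSO was 8.54, 8.44 and 8.36 in TMD8 against 7.75, 7.88 and 7.88 in DOHH2, which did not overlap. The difference was -0.61 ± 0.09 (limma adjusted p = 5.7e-05), or 0.657 times the TMD8 level.

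LIN37 under DMSO was 6.64, 6.74 and 6.55 in TMD8 and 6.33, 6.38 and 6.11 in DOHH2, a log2 difference of -0.37 ± 0.13 (limma adjusted p = 0.0286). In DOHH2 the probe was above background on 2 of 3 DMSO arrays, so the size of this difference depends on the floor: it was -0.61 with a normexp offset of 16 and -0.27 without background correction. The call was lost without TMD8 DMSO array 1 (adjusted p = 0.0527), without TMD8 DMSO array 2 (0.0969) and without DOHH2 DMSO array 3 (0.122). RBL2 was lower by a similar amount, -0.36 ± 0.16, without passing (limma adjusted p = 0.0811). FOXM1 stood at 8.42 ± 0.05 (SD, n = 3) in TMD8 and 8.42 ± 0.29 in DOHH2, a difference of 0.00 ± 0.17 (limma adjusted p = 0.989, interval -0.36 to 0.37). The mitotic kinases AURKA and PLK1 were lower in DOHH2 by the same contrast, with log2 differences of -1.13 and -1.22. Of the 50 mitotic genes, 28 were called lower and 4 higher in DOHH2 than in TMD8 under DMSO. Over all genes 52.4% were called by this contrast, 3182 lower and 2988 higher.

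FOXM1 was then set against the mitotic genes within each array. In TMD8 the median of the 50 mitotic genes went from 9.81 ± 0.003 (SD, n = 3) under DMSO to 9.12 ± 0.07 under ST5589, and the groups did not overlap. FOXM1 minus this median was -1.40, -1.44 and -1.35 under DMSO and -0.87, -0.62 and -0.83 under ST5589. All treated arrays lay above all DMSO arrays, by 0.62 on average. In DOHH2 the mitotic median went from 9.35 ± 0.09 to 9.11 ± 0.07. FOXM1 minus the median was -1.13, -0.73 and -0.93 under DMSO and -0.13, -0.89 and -0.62 under ST5589, a mean difference of 0.38 with overlapping groups. Over both lines the difference was 0.50, while the averaged log2 fold change of FOXM1 itself was 0.03. The difference is therefore mostly the shift of the mitotic median, which was known when the list was drawn up, and it is given as a description without a p-value.

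For MYBL2 the same difference was 0.85 in TMD8, 0.15 in DOHH2 and 0.50 over both lines, again as a description. MYBL2 minus the median was -3.42, -3.64 and -3.44 under DMSO and -2.81, -2.46 and -2.68 under ST5589 in TMD8. In DOHH2 it was -2.81, -2.91 and -2.88 under DMSO and -2.61, -2.81 and -2.72 under ST5589. In both lines all treated arrays were above all DMSO arrays, with a margin under 0.01 in DOHH2. Because MYBL2 lay near background, the probe had little room to fall with the mitotic genes, and this difference sets a bounded value against a free one.

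**Figure D3:**
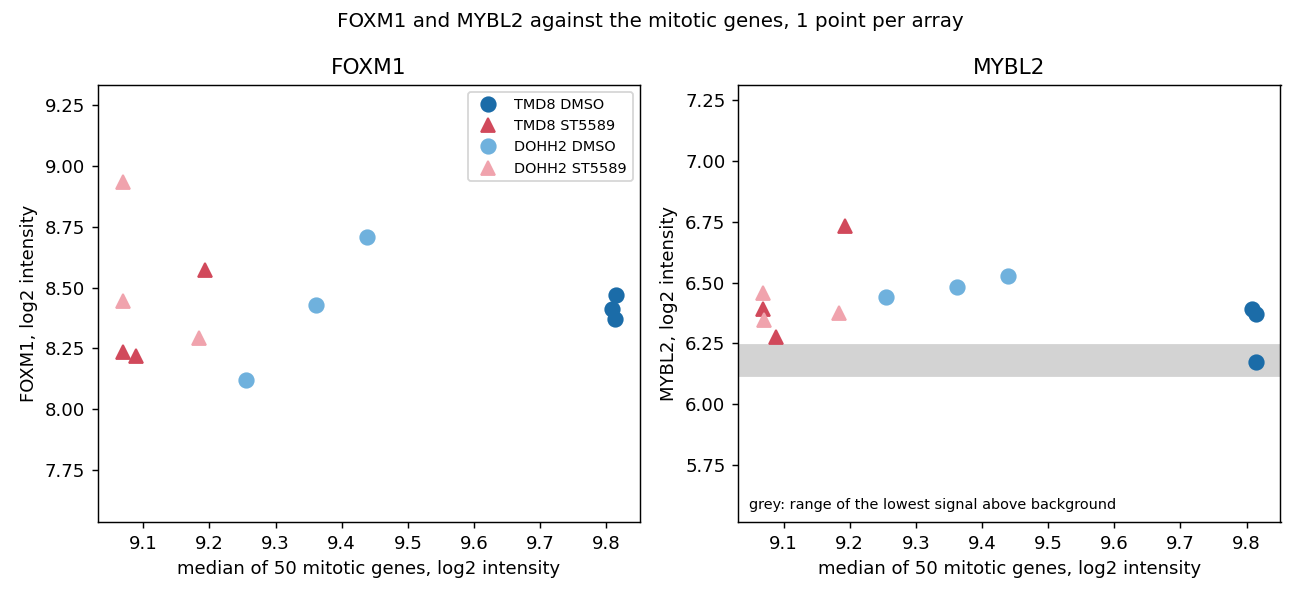
FOXM1 (left) and MYBL2 (right) in log2 intensity against the median of the 50 mitotic genes, 1 point per array (circles DMSO, triangles ST5589). The TMD8 points move from 9.81 to about 9.12 on the horizontal axis with no matching vertical shift, and MYBL2 sits beside the grey band from 6.12 to 6.24 that marks the lowest signals above background.

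Of the single mitotic genes, KIF20A, PLK1, CENPA and CCNB1 were named for the largest absolute changes of the list in TMD8. Their size there follows from that choice, and the list's median was -0.50, with 22 of 50 called lower. In TMD8 the log2 fold changes of KIF20A (a mitotic kinesin), PLK1, CENPA (the histone of centromeres), CCNB1 (cyclin B1) and AURKA (Aurora A) ran from -1.23 to -0.84, all called (limma adjusted p from 1.9e-04 to 0.0049). In DOHH2 they were -0.68, -0.24, -0.46, -0.54 and -0.45, of which KIF20A alone was called (limma adjusted p = 0.0498). AURKB, the kinase of the chromosomal passenger complex, was at -0.26 ± 0.09 and -0.05 ± 0.09 in TMD8 and DOHH2 and passed in neither line. In TMD8 all its treated arrays lay below all DMSO arrays (limma unadjusted p = 0.0101, limma adjusted p = 0.354), whereas those of FOXM1 overlapped.

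Among genes that feed into DREAM, CDKN1A passed the test. CDKN1A, which encodes the kinase inhibitor p21 that favours DREAM assembly, was 10.74 ± 0.41 (SD, n = 3) under DMSO and 11.83 ± 0.04 under ST5589 in TMD8. This was a rise of 1.09 ± 0.19 (limma adjusted p = 0.0123). The DMSO arrays in TMD8 were 10.26, 10.97 and 10.98, lowest on array 1, the array of highest background. All treated arrays lay above them. In DOHH2 the rise was 1.07 ± 0.19 and not called (limma adjusted p = 0.129), and the average over both lines was called at 1.08 (limma adjusted p = 0.0014). A second CDKN1A probe was above background on 0 of 3 DMSO and 3 of 3 ST5589 arrays in TMD8, and on 1 and 2 of 3 in DOHH2, so it gives no fold change. Of the 9 tested genes among 14 cyclins, kinases and inhibitors upstream of the pocket proteins, CDKN1A was the 1 called higher in TMD8, and 0 were called lower. CCND3 (0.44), CDK2 (0.44) and CDKN1B (-0.16) followed in size without passing, and the list's median was -0.02 beside 0.01 over all genes.

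Of 10 further DREAM, MuvB and MYB partners, all tested, 0 were called in either line, with medians of 0.03 in TMD8 and 0.02 in DOHH2. The largest values in TMD8 were E2F5 (-0.34), a repressive E2F, and MYB (0.32), followed by BTG3 (0.19) and HDAC1 (0.16). Between the lines, 7 of these 10 were called higher in DOHH2 and 2 lower, beside 52.4% of all genes called (2988 higher and 3182 lower). MYB was 1.58 higher on the log2 scale. Of 9 regulators and partners of FOXM1, 8 were tested and 0 were called within a line. CEBPB, a leucine zipper transcription factor, was the 1 called in the average over both lines, at 0.57 (limma adjusted p = 0.0221), with 0.56 in TMD8 and 0.57 in DOHH2. FOXO3, which opposes FOXM1, had values of 0.43 and 0.45 in TMD8 and DOHH2 and did not pass.

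The G1/S and DNA synthesis list went the opposite way from the mitotic list. Of its 33 tested genes in TMD8, 4 were called higher and 0 lower, with a median of 0.38. The 4 calls were 0 under scaling to a common median, with a normexp offset of 16, with the replicate block, and without TMD8 DMSO array 1 or any single treated TMD8 array. They were 22 with array weights and 1 without either of the other TMD8 DMSO arrays, with medians of 0.15 or more throughout. In DOHH2, 0 were called and the median was 0.22. CCNE1, cyclin E1, rose by 0.61 and GINS2, a helicase subunit, by 0.59 in TMD8 (limma adjusted p = 0.0265 and 0.0388), while CDT1 (0.93) and RRM2 (0.70) did not pass. CDT1 was 8.14, 9.06 and 9.05 on the TMD8 DMSO arrays, lowest on array 1. RBL1, at 0.28 in TMD8 and -0.13 in DOHH2, lay below this median in both lines. MYBL2, at 0.15 and -0.09, did so too.

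Over the 12 arrays, with each line's mean taken off, FOXM1 did not track the mitotic genes. The Pearson correlation of FOXM1 was -0.11 with AURKA, whereas AURKA and KIF20A had 0.995. The 5 genes most like FOXM1 were CHPF (0.968), NADK (0.956), SCAMP5 (0.953), ATN1 (0.950) and TMEM184B (0.950), whose log2 fold changes under ST5589 ran from -0.16 to 0.02 in TMD8 and from 0.04 to 0.21 in DOHH2. Like FOXM1, each of these 5 was lowest on DOHH2 DMSO array 1 and highest on DOHH2 ST5589 array 1. The 5 most like MYBL2 were SNORD95 (0.886), SNORD15B (0.876), SNORD68 (0.870), CAPN3 (0.866) and SNORD46 (0.863), of which 4 are small nucleolar RNAs, and RBL2 followed MYBL2 with 0.820. These 5, MYBL2 and RBL2 were all highest on TMD8 ST5589 array 2. These correlations describe 12 arrays that share their chips and are given without a test.

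**Figure D4:**
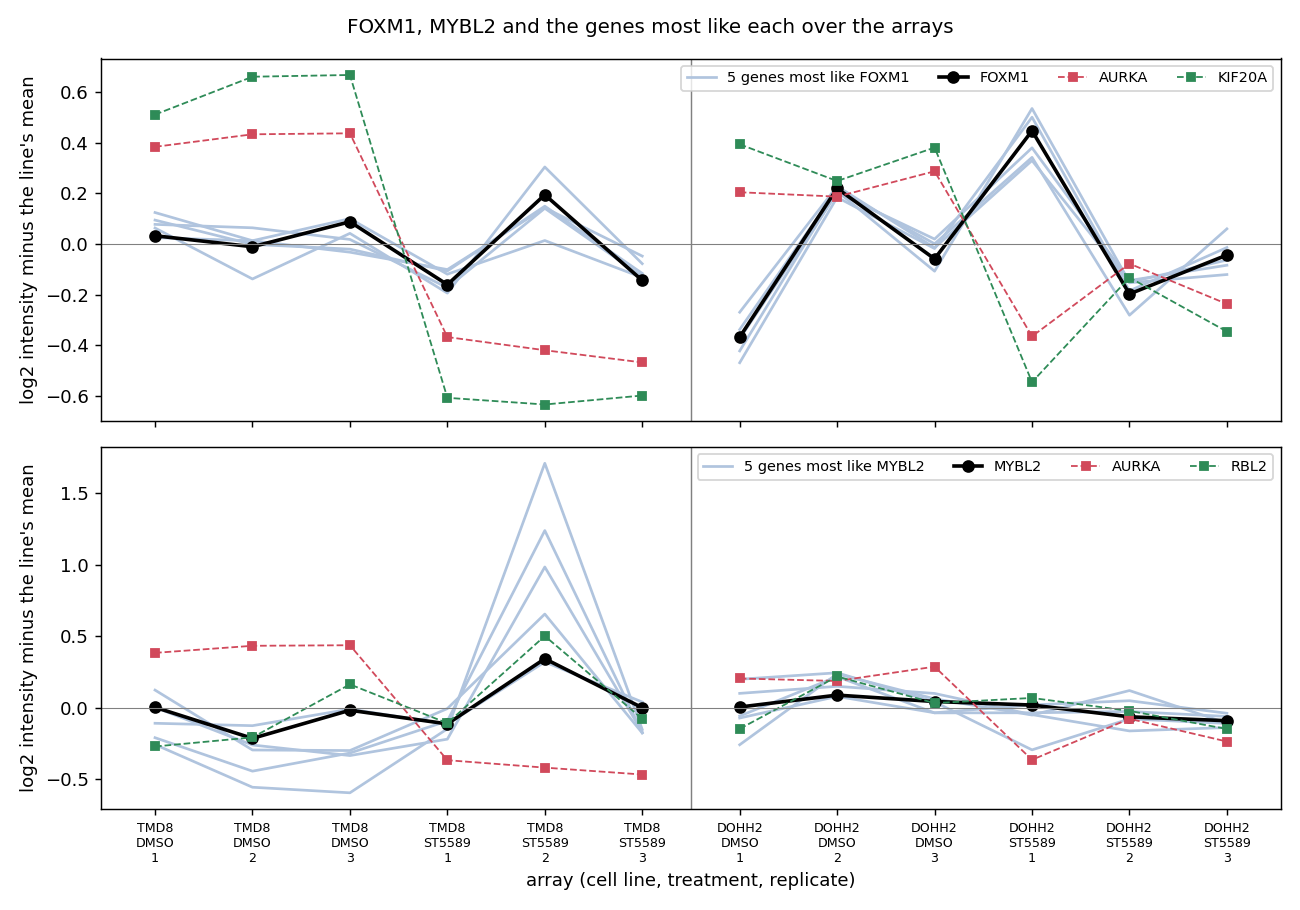
Log2 intensity minus the mean of the line on each array for FOXM1 (top) and MYBL2 (bottom), each with the 5 genes most like it (light lines), AURKA (red) and KIF20A or RBL2 (green); the vertical line parts the cell lines. FOXM1 follows its own 5 genes and peaks on DOHH2 ST5589 array 1, while MYBL2 and RBL2 peak on TMD8 ST5589 array 2.

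Small structural RNAs differed between treated and DMSO arrays of TMD8, beside the values given above. Of 7 such RNAs, 3 were called higher (RNU6ATAC by 2.54, RNU4-2 by 2.46 and RN7SK by 2.17) and 2 lower (RNY4, -1.58, and VTRNA1-1, -1.45, the latter named after its values were seen). RNU11 (0.34) and RNU4ATAC (-0.13) were not called, and 0.901% of all genes were. The list was chosen with earlier results of these arrays known, so its count is not independent evidence. In DOHH2, 0 of the 7 were called. On TMD8 ST5589 array 2, the array that is highest for MYBL2 and RBL2, RNU4-2 was 12.49 against 11.41 and 11.31 on the other treated arrays, and 9.05 to 9.70 under DMSO. The part of this in the MYBL2 and RBL2 values was not tested.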

How the data were processed

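Expression was measured on 12 arrays, grouped by the sample labels. Per the labels, RNA came from RNeasy columns, passed a Bioanalyzer check and was made into biotin-labelled cRNA with the TotalPrep kit, and GenomeStudio (version not stated) is named in the submitters' processing notes. Deposited were linear probe intensity values before normalization, lacking detection p-values and control probes, and the authors' processed log2 values, which served as an alternative because no source used here states their normalization.

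Background correction used normexp by saddle point with an offset of 50, followed by quantile normalization and log2 (R 4.3.3, limma 3.58.1). To be above background, a probe had to exceed its array's mode by 2.326 SD, where the SD came from mirroring the intensities below the mode. A probe was kept if this held on every array of some group (21549 probes), the kept probe of highest mean stood for its gene, and 11765 genes were tested. Fits with 1 coefficient per group over all 12 arrays used lmFit and eBayes with Benjamini-Hochberg adjustment over all genes, without a replicate block, and calls were made at an adjusted p under 0.05. The planned permutation test of FOXM1 and MYBL2 against the mitotic median is not read, since the fall of that list was known and MYBL2 had little room to fall. Precision is limited by the number of arrays, with a median standard error of 0.11 within a line. The annotation gave 1 symbol for 30113 probes, several for 8 and none for 17110, and 30074 of the 30121 annotated probes could be updated to a current gene. The fit was tested on simulated data.

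The members and all lists were chosen with earlier results of these data known. The genes named were the 10 members with every probe, AURKA, AURKB, PLK1, CCNB1 and CDKN1A, up to 4 genes of each list with the largest absolute change in TMD8, and the 5 genes most correlated with FOXM1 and with MYBL2. Of the mitotic list these were KIF20A, PLK1, CENPA and CCNB1. Promoter letters were searched in 35116 RefSeq windows. Alternatives changed the background correction, offset, scaling, filter, probe choice, variance model, array weights and replicate block, or left out each array.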

Additional observations from a re-analysis of the deposited data

Results flagged for a closer look

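RBL1 stood out because all treated TMD8 arrays lay above their DMSO arrays and all treated DOHH2 arrays lay below theirs. The difference of the log2 fold changes, DOHH2 minus TMD8, was -0.41 ± 0.14, and the direct test of this difference in limma did not pass after adjustment (unadjusted p = 0.0121, limma adjusted p = 0.9998). It ran from -0.53 to -0.31 over 23 alternatives, with the smallest size without TMD8 DMSO array 1.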

How the results depend on the processing

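Under all alternatives run for them, 0 of 10 members were called for ST5589 in TMD8, in DOHH2, in their difference and in their average. Between the lines 2 to 4 members were called. RB1 and LIN54 passed under all 23 alternatives (limma, adjusted p at most 0.0051 and 0.0269). RBL2 passed with array weights (-0.39, limma adjusted p = 0.0175) and without TMD8 ST5589 array 2 (-0.36, limma adjusted p = 0.0332). FOXM1 against the mitotic median ran from 0.40 to 0.59 and MYBL2 from 0.45 to 0.64 over 20 alternatives, all positive, which is no support since the fall of the mitotic list was known. The counts over all genes depended on the setting: the 106 calls in TMD8 became 7 with scaling to a common median, 452 with array weights, 40 with the replicate block and 56 to 117 with single arrays left out. The 86 calls of the average became 0, 260 and 46 in the first 3 settings, and the 6170 calls between lines became 3945 with scaling to a common median. DOHH2 had 0 to 5 calls and the difference 0 to 17.

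Replicate numbers paired the arrays in neither line (correlations of same-numbered deviations -0.15, -0.03 and -0.10 in TMD8 and -0.49, 0.00 and -0.25 in DOHH2). With the number as a replicate block, 0 members were called under ST5589 in TMD8 (adjusted p of RBL1 = 0.704) and 3 between lines.

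Values near 0 changed sign, with the cause not tested. Scaling to a common median gave LIN9 -0.12, LIN37 -0.0072 and LIN54 -0.0525 in TMD8, TFDP1 -0.17 in DOHH2, FOXM1 -0.0848 on average, and FOXM1 -0.081, RBL1 -0.0468 and TFDP1 0.0011 between lines. Array weights gave TFDP1 0.010 in TMD8, FOXM1 -0.0837 in DOHH2, FOXM1 -0.12 and MYBL2 -0.0068 on average, and RBL1 -0.067 and TFDP1 0.0929 between lines. The mean over kept probes gave TFDP1 0.0132 in TMD8. With single arrays left out, TMD8 values ran from -0.0303 to 0.10 for LIN9, -0.0265 to 0.10 for LIN37, -0.0733 to 0.0361 for LIN52, -0.0643 to 0.0568 for RB1 and -0.0777 to 0.0022 for TFDP1. DOHH2 values ran from -0.0522 to 0.28 for FOXM1, -0.0355 to 0.23 for LIN37, -0.11 to 0.010 for LIN52, -0.16 to 0.0232 for RBL2 and -0.0807 to 0.16 for TFDP1. Averages ran from -0.0633 to 0.10 for FOXM1 and -0.0359 to 0.0785 for MYBL2. Between lines the values ran from -0.14 to 0.15 for FOXM1, -0.0653 to 0.0442 for LIN52, -0.0934 to 0.0964 for RBL1 and -0.13 to 0.0814 for TFDP1. MYBL2 in TMD8 and LIN37 in DOHH2 lay so near background that a fall of the size of the line's mitotic median could not be measured. MYBL2 in DOHH2 lay 0.28 log2 units above the lowest signal counted, beside a mitotic median of -0.26. Such a fall would have brought it close to that signal. Without DOHH2 treated array 2 the mitotic median was -0.33, and a fall of that size would have taken MYBL2 below the signal.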
